A study of Mus musculus with 4 samples.

Results

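FLAG-CACUL1 cells, which carry a FLAG-tagged CACUL1 construct, were compared directly with sh-Luc cells, which carry a short hairpin RNA (shRNA) against luciferase. The comparison uses 2 of the 4 samples of the series and 1 sample per line, and it covers 13085 genes. All 4 lines are stable derivatives of 3T3-L1, a murine preadipocyte line that turns into fat cells under hormones. Each was taken to confluence and induced with dexamethasone (1 μg/ml), rosiglitazone (5 μM), IBMX (0.5 mM) and insulin (5 μg/ml). Medium with insulin was then added every 2 days from day 2, and total RNA was harvested on differentiation day 8. The other two lines were FLAG, with the empty FLAG vector, and sh-CACUL1, with a hairpin against Cacul1. FLAG lines were selected with G418 and hairpin lines with Hygromycin B. FLAG-CACUL1 and sh-Luc therefore differ at once in the CACUL1 construct, the vector and the selection drug, and the contributions of these cannot be told apart. No line was replicated, so no difference has a replicate check and no test was made. Values are in FPKM (fragments per kilobase of transcript, relative to the depth of each sample), and ratios are log2 of FPKM + 1 in FLAG-CACUL1 over the same in sh-Luc. A gene is counted as higher or lower when that ratio reaches 1 (2-fold) in either direction.

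CACUL1 was named as a cullin family protein associated with the cell cycle kinase CDK2. In the study it is proposed to hold back PPARγ, the nuclear receptor that drives fat cell formation, by acting with the deacetylase SIRT1 and against the histone demethylase LSD1 (gene Kdm1a). During adipogenesis, confluent preadipocytes arrest growth, pass through a clonal expansion and then differentiate terminally. PPARγ and C/EBPα switch on genes of lipid storage, and genes of the fibroblast state are turned down. FLAG-CACUL1 and sh-Luc were chosen for comparison because both had low levels of fat cell genes. The 31 measured mature fat cell markers summed to 1679.7 FPKM in FLAG-CACUL1 and 2330.2 in sh-Luc, against 15538 in FLAG and 22846 in sh-CACUL1. That sum is the basis of the choice and is no finding here. Cells that failed to store lipid and lower transcript amounts per fat cell cannot be told apart in bulk RNA.

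Cacul1 itself, on chr19:60524696-60581023 (mm10), was at 11.8 FPKM in FLAG-CACUL1, 10.2 in sh-Luc, 9.61 in FLAG and 5.39 in sh-CACUL1. The log2 ratio between FLAG-CACUL1 and sh-Luc was 0.18, and between FLAG-CACUL1 and its own vector control FLAG it was 0.27. The Cacul1 row thus differed little between the compared lines, while sh-CACUL1 had the lowest value. Whether fragments of the construct count in this row is not given in the sources used here. None of the 12 measured genes of CACUL1 and its proposed partners reached 2-fold in either direction, where 5.04% of all genes were higher and 4.87% lower. Pparg was at 12.3 FPKM in FLAG-CACUL1 and 14.8 in sh-Luc, a log2 ratio of -0.25. Ratios of the same kind were -0.19 for Sirt1, -0.14 for Kdm1a and 0.27 for Rxra, the PPARγ partner receptor. The lowest in this list belonged to Crebbp at -0.75, Ncor1 at -0.67 and Cdk2 at -0.48.

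Across all genes, 659 were higher in FLAG-CACUL1, which is 5.04% of those compared, and 637 were lower, which is 4.87%. The median log2 ratio over all genes was -0.10. With median-of-ratios scaling between the compared lines, which shifts each ratio of a well-expressed gene by 0.16, the counts were 828 higher and 467 lower, so that 63.9% rather than 50.8% of the called genes were higher. The steps in low FPKM values correspond to about 14300000 fragments in FLAG-CACUL1 and 24000000 in sh-Luc, and 1 fragment on 1 kb was worth 0.0701 and 0.0416 FPKM, respectively. All rows are above 0 in all 4 samples, and a value far below 1 fragment is read here as not detected. Genes were split into 5 bins by transcript length, and the median log2 ratio ran from -0.02 in the shortest bin to -0.19 in the longest. Its part in any result below was not tested.

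**Figure D1:**
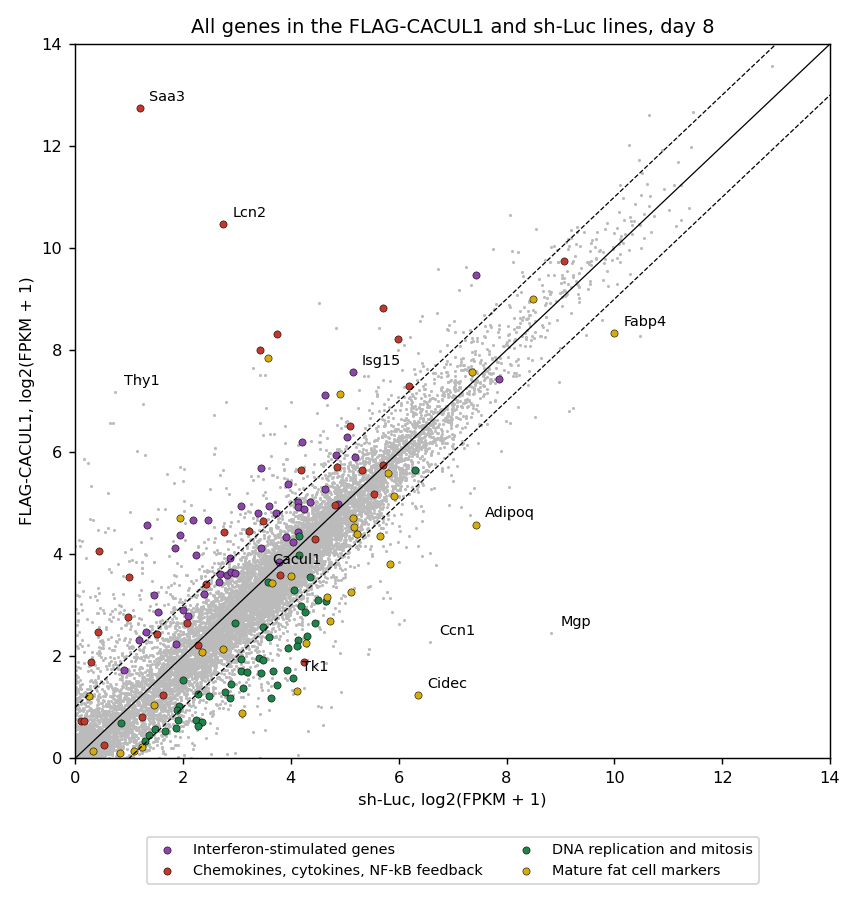
Level of each of 13085 genes as log2(FPKM + 1), sh-Luc on the x axis and FLAG-CACUL1 on the y axis, with 1 sample per line; the solid line marks equality and the dashed lines 2-fold. Saa3 and Lcn2 lie far above the band, most interferon-stimulated genes lie above equality, and most DNA replication and mitosis genes lie below it.

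Saa3, an acute phase serum amyloid (chr7:46711998-46719615), was at 6829 FPKM in FLAG-CACUL1 and 1.32 in sh-Luc, with 1135 in FLAG and 3.33 in sh-CACUL1. Its log2 ratio of 11.53 was the largest of the comparison. Lcn2, the iron-siderophore binding lipocalin 2, was at 1424 FPKM in FLAG-CACUL1, 5.71 in sh-Luc, 1581 in FLAG and 42.3 in sh-CACUL1, a log2 ratio of 7.73. In both genes the FLAG lines were high and the hairpin lines low, with no overlap. Lbp, the lipopolysaccharide binding protein, was at 63.7 FPKM against 1.20, with 27.2 in FLAG and 5.67 in sh-CACUL1. Serpina3g and Serpina3h, of a clustered serine protease inhibitor family, had log2 ratios of 5.54 and 5.69, and because such family members share sequence the division of reads among them is uncertain. Haptoglobin (Hp), a plasma hemoglobin scavenger also made by fat cells, was at 230.2 FPKM against 10.9, with 1568 in FLAG and 26.7 in sh-CACUL1.

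Of the chemokine, cytokine and NF-κB feedback genes, 27 had a ratio above 0, as had 39.9% of all genes. Of 35 measured members, 17 were at least 2-fold higher and 1 was lower, with a median log2 ratio of 0.99 against -0.10 over all genes. The list also holds growth factors such as Hgf and Fgf7 and the prostaglandin enzyme genes Ptgs2 and Ptges. Saa3 and Lcn2, described above, belong to it as well and are counted among the 17. Cxcl1, a neutrophil attractant, was at 317 FPKM in FLAG-CACUL1, 12.4 in sh-Luc, 176 in FLAG and 1.71 in sh-CACUL1. Cxcl5, a related attractant, was at 256, 9.82, 10.3 and 0.30 FPKM in the same order. Both had a log2 ratio of 4.57, but Cxcl1 was high in both FLAG lines whereas Cxcl5 was high in FLAG-CACUL1 only. The monocyte attractant Ccl2 was at 451 FPKM against 51.1, with 87.3 in FLAG and 2.00 in sh-CACUL1. Tnfaip6, a hyaluronan binding protein, was the 1 lower member at 2.68 FPKM against 18.0, and it was under 2 FPKM in the other two lines. The NF-κB inhibitor gene Nfkbia was at 52.5 and 51.1 FPKM, and Nfkb1, which encodes a subunit of the factor, was at 18.8 and 20.9. Among complement genes, 4 of 13 were higher and 0 lower, led by C4b with a log2 ratio of 3.13, Cfb with 2.81 and C3 with 2.59. C4b and Cfb were at only 0.892 and 0.356 FPKM in sh-Luc, and with at least 1 FPKM required in both lines 2 complement genes were higher.

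Interferon-stimulated genes are those that cells switch on after sensing interferon. Of 46 measured genes, 23 were at least 2-fold higher and 0 lower, 45 had a ratio above 0, and the median log2 ratio was 0.99. Isg15, a ubiquitin-like modifier, was at 189 FPKM in FLAG-CACUL1, 34.4 in sh-Luc, 79.8 in FLAG and 1.62 in sh-CACUL1. Ifit1, which binds foreign RNA, was at 72.5, 17.5, 29.6 and 0.0258 FPKM in the same order. In both genes the levels ran from FLAG-CACUL1 through FLAG and sh-Luc to sh-CACUL1. FLAG-CACUL1 had the highest level of the 4 lines in 34 of the 46 genes and FLAG in 11, against 21.8% and 22.3% of all genes. Of the 46, 33 were at least 2-fold higher in sh-Luc than in sh-CACUL1, against 16.4% of all genes. The largest log2 ratios belonged to the nucleic acid sensor Zbp1 at 3.25, Ifit3 at 2.50 and the oligoadenylate synthetase Oas2 at 2.48. Ratios nearest to 0 or below it were 0.10 for Ifi35, 0.06 for Dhx58 and -0.43 for Ifi27. The FLAG and sh-CACUL1 lines, a pair that shares no sample with the main comparison, also carried the FLAG and hairpin vectors, respectively. That pair differed in Cacul1 as well, at 9.61 and 5.39 FPKM. There 37 of the 46 genes were at least 2-fold higher in FLAG and 0 were lower, against 18.3% higher and 8.87% lower among all genes with at least 1 FPKM in either of those lines.

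MHC class I and peptide loading genes are those through which cells display peptides to T cells. Of 18 genes, 12 were at least 2-fold higher in FLAG-CACUL1 and 0 lower, and the median log2 ratio was 1.19. B2m, the light chain of class I molecules, was at 6284 FPKM in FLAG-CACUL1, 1601 in sh-Luc, 3255 in FLAG and 418 in sh-CACUL1. The immunoproteasome subunit Psmb8 was at 21.1, 0.341, 37.8 and 0.302 FPKM in the same order. For Psmb8 both hairpin lines were near 0 and both FLAG lines above 20. In 10 of the 18 genes both FLAG lines were at least 2-fold above both hairpin lines, against 1.85% of all genes, and in 0 the reverse held. Psmb8 was named for that arrangement, and the list was written with earlier results of these data known. The count is therefore no independent finding. H2-K1 had a log2 ratio of 2.79 and H2-Q4 of 2.29, and since class I heavy chain genes resemble each other their split of reads is uncertain. The general chaperones Canx at 0.13 and Calr at 0.24 had the smallest ratios.

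Promoter sequences are shown for members of these groups, since the letters in them can be compared with the levels. Each runs from 250 bases before to 50 bases after a RefSeq start of the gene, 300 bases in all, 5′ to 3′ on the gene's own strand, from RefSeq on GRCm38.p6. An interferon response type motif, GAAANNGAAA on either strand, where N is any base, occurred in 3.44% of all 32851 promoters in the table and in a promoter of 3.99% of its 27025 genes. Among the 10202 of these genes that were compared here, the share was 3.71%. Of the interferon-stimulated genes, 33 had a promoter in the table and 17 of these (51.5%) held the motif, among them Isg15, Ifit1, Ifit3, Bst2, Oas1a, Rsad2 and Stat2. The 17 genes had a median log2 ratio of 1.35 and the 16 without it 0.84. Of 16 MHC class I and peptide loading genes with a promoter in the table, 3 held the motif (18.8%), B2m among them. In the chemokine, cytokine and feedback list it was 2 of 27 (7.41%), Saa3 among them. The promoters of Isg15 (chr4:156200769-156201068, minus strand), Ifit1 (chr19:34640639-34640938, plus strand), B2m (chr2:122147437-122147736, plus strand) and Saa3 (chr7:46715627-46715926, minus strand) follow, with the motif in capitals. Isg15 holds 3 overlapping matches, and in Ifit1 both matches are on the opposite strand and so read TTTCNNTTTC. The Saa3 window lies at a start inside the RefSeq span of the gene given above, which extends further upstream.
Isg15: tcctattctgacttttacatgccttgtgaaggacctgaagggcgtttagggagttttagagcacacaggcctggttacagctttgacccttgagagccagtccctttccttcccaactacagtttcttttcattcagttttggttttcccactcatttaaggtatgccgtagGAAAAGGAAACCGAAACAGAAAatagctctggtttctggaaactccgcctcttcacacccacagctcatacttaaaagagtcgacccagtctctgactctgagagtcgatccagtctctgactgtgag
Ifit1: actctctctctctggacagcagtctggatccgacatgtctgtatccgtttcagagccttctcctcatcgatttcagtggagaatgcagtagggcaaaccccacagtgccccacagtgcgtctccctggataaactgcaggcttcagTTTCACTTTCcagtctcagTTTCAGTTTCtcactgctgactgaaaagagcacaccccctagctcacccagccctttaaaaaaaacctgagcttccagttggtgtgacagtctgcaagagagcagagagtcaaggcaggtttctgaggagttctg
B2m: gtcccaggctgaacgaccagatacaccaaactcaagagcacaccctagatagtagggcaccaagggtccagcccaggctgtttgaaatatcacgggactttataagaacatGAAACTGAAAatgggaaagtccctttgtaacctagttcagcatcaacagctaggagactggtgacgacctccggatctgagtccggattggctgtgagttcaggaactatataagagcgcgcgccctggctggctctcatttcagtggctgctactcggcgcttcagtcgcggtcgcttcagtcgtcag
Saa3: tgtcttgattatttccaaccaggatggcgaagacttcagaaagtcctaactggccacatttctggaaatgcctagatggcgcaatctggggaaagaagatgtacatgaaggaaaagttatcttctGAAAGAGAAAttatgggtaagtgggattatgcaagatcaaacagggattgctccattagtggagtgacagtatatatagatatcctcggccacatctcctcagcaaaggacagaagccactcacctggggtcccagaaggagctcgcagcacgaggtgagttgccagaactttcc
An NF-κB type motif, GGGNNTTTCC on either strand, occurred in 1.63% of all promoters (1.89% of genes). Among the genes compared here that had a promoter in the table, the share was 1.95%. The motif was in 7 of the 27 chemokine, cytokine and feedback genes with a promoter in the table (25.9%). These were Ccl9, Csf1, Cxcl1, Il6, Nfkb2, Nfkbia and Tnfaip3, of which Nfkbia and Nfkb2 had log2 ratios of 0.04 and 0.13. The Cxcl1 promoter (chr5:90890995-90891294, plus strand) held 1 match on each strand, shown in capitals.
Cxcl1: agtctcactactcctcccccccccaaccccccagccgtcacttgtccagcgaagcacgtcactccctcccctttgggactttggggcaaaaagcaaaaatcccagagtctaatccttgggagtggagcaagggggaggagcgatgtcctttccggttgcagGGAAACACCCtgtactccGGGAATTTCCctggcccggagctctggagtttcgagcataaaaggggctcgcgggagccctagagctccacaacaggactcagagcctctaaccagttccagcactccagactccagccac
A match describes the letters in these windows and shows no binding in these cells.

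Macrophages express many of the genes above, and their markers were therefore read beside them. Of 15 macrophage markers, 7 were measured, and their summed level was 117 FPKM in FLAG-CACUL1, 20.9 in sh-Luc, 44.2 in FLAG and 13.8 in sh-CACUL1. Lyz2 at 66.5 FPKM and Cd14 at 42.2 FPKM made up nearly all of the sum in FLAG-CACUL1. Both were at least 2-fold higher there than in sh-Luc, and the other 5 were within 2-fold on the FPKM + 1 scale. Without a pseudocount 5 of the 7 markers were higher, and with a pseudocount of 0.1 the count was 4. Of the defining markers, Csf1r was at 0.397 against 0.119 FPKM, Mrc1 at 0.0260 against 0.00776 and Aif1 at 0.965 against 0.226. Cd68 was detected in both lines, at 1.44 against 0.962 FPKM, and was at 16.2 in FLAG. Mertk was the 1 member with a ratio below 0, at 5.77 against 11.5 FPKM. The part of macrophage markers in the results above was not tested. Adgre1, Ptprc and Itgam were not among the genes measured here. Of the markers of other cell types, 3 of 13 for endothelium were measured, and none reached 2-fold on that scale. Without a pseudocount 1 of them was higher and 1 lower. For bone and cartilage 5 of 17 were measured with 2 higher, Spp1 at 1.72 and Alpl at 1.25. For skeletal muscle 1 of 4 measured genes was higher, Des at 5.95 against 1.13 FPKM. For brown fat 0 of 6 reached 2-fold on that scale, and 1 was lower without a pseudocount. For epithelium and nervous tissue 1 of 4 was lower, Krt8 at 0.206 against 2.63 FPKM.

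**Figure D2:**
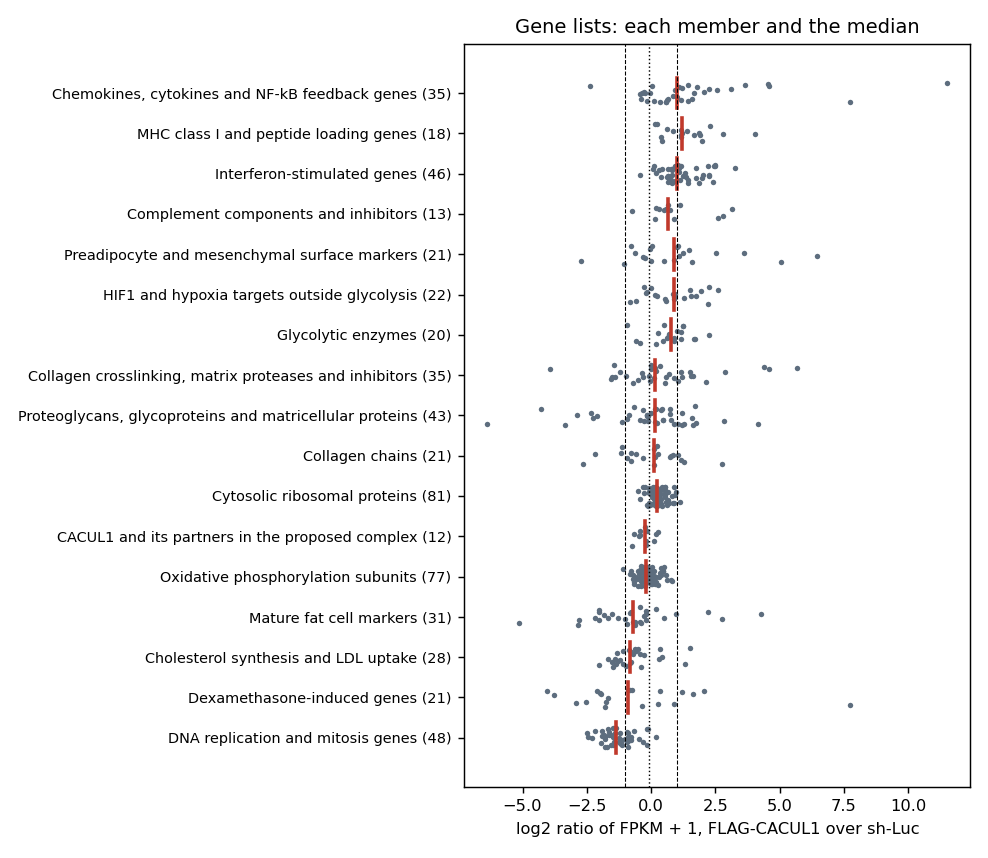
Log2 ratio of FPKM + 1, FLAG-CACUL1 over sh-Luc, for each measured member (dots, number in parentheses) of 17 gene lists, with the list median as a red bar; the dotted line is the median of all genes (-0.10) and the dashed lines mark 2-fold. MHC class I, interferon and chemokine lists have medians near 1, and DNA replication and mitosis genes have a median of -1.37.

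DNA replication and mitosis genes serve cells that divide. Of 48 genes, 33 were at least 2-fold lower and 0 higher, and the median log2 ratio was -1.37. Tk1, the thymidine kinase of S phase, was at 1.97 FPKM in FLAG-CACUL1, 15.5 in sh-Luc, 7.57 in FLAG and 11.8 in sh-CACUL1. Mcm5, a subunit of the replicative helicase, was at 1.28, 11.3, 2.31 and 4.04 FPKM in the same order. Ccna2, the S and G2 phase cyclin, was at 1.70 FPKM against 12.4, with 4.36 in FLAG and 4.67 in sh-CACUL1. In all of these sh-Luc was the highest and FLAG-CACUL1 the lowest. The 1 gene with a ratio above 0 was the transcription factor E2f1 at 0.20, followed by Tpx2 at -0.13 and Rrm1 at -0.16. sh-Luc had the highest level of the 4 lines in 44 of the 48 genes, against 37.1% of all genes, and in 15 it was at least 2-fold above each of the others, against 1.7% of all genes. Between FLAG and sh-CACUL1, 2 of the 48 genes were at least 2-fold higher in FLAG and 1 was lower, with a median log2 ratio of -0.09. Of all 13085 genes, 2016 were higher and 975 lower in that pair, with a median of 0.07. FLAG-CACUL1 had the lowest level of the 4 lines in 29 of the 48, against 16.7% of all genes.

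G1 regulators were also read. Of 20 G1 cyclins, CDKs and CDK inhibitors, 2 were higher and 0 lower, where 5.04% of all genes were higher and 4.87% lower. Counts this small say little. The median log2 ratio was -0.15, against -0.10 over all genes and -1.37 for the replication and mitosis list. The p21 gene Cdkn1a, an inhibitor of CDK2, was at 246 FPKM in FLAG-CACUL1, 80.7 in sh-Luc, 172 in FLAG and 76.6 in sh-CACUL1. Ccne1, the cyclin E1 partner of CDK2, was at 14.4, 6.55, 7.51 and 9.79 FPKM in the same order, a log2 ratio of 1.03. Cdk2 was at 10.9 and 15.7 FPKM in FLAG-CACUL1 and sh-Luc. The cell cycle homology region motif TTTGAA, on either strand, occurred in 17.9% of all promoters (20.2% of genes) and in 17 of the 39 replication and mitosis genes with a promoter in the table (43.6%). Among the 10202 genes compared here that had a promoter in the table, 14.6% held it. The median log2 ratio was -1.45 for the 17 genes with it and -1.29 for the 22 without it. It is shown in capitals for Plk1 (chr7:122159185-122159484, plus strand), a mitotic kinase at 1.62 FPKM in FLAG-CACUL1 and 7.66 in sh-Luc.
Plk1: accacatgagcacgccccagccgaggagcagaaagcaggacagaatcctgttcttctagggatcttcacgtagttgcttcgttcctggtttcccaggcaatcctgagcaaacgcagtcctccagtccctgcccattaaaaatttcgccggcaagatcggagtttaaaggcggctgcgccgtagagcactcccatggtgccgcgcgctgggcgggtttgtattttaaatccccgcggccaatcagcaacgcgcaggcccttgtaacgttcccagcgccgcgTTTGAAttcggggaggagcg

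Although both lines were low in fat cell genes, 25 of the 31 mature fat cell markers had a ratio below 0, as had 60.1% of all genes. In 12 of them the FLAG-CACUL1 level was lower by 2-fold or more and in 3 it was higher, and the median log2 ratio was -0.71. Cidec, a lipid droplet protein (chr6:113424634-113435760), was at 1.36 FPKM in FLAG-CACUL1, 81.5 in sh-Luc, 123 in FLAG and 1324 in sh-CACUL1. Adiponectin (Adipoq), a fat cell hormone, was at 23, 171, 837 and 1252 FPKM in the same order. The fatty acid binding protein gene Fabp4 was at 320.4, 1020.1, 4991 and 12543. In these genes both compared lines were below FLAG and sh-CACUL1, which follows from the choice of the pair and is no finding. Between the compared lines, FLAG-CACUL1 was the lower for each of them. Gpd1, which makes the glycerol backbone of triglyceride, had a log2 ratio of -2.80. The 3 higher members were Hp with a log2 ratio of 4.28, the triglyceride synthesis enzyme Dgat2 with 2.76 and the adipokine Rarres2 with 2.23. Hp and Dgat2 were above both hairpin lines in each FLAG line, with Dgat2 at 25.1 FPKM in FLAG-CACUL1, 2.86 in sh-Luc, 261 in FLAG and 6.24 in sh-CACUL1.

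Other genes of the PPARγ program lay within 2-fold on the FPKM + 1 scale, which compresses the ratios of low genes. Lpl, the lipoprotein lipase, was at 512 FPKM in FLAG-CACUL1 and 357 in sh-Luc. The fatty acid transporter Cd36 was at 34.4 and 59.5 FPKM. Cebpa was at 1.58 and 0.421 FPKM, the adipokine Retn at 1.34 and 0.192, and the melanocortin receptor accessory protein Mrap at 0.0825 and 0.775. All of these were below their levels in FLAG and sh-CACUL1, where Mrap for example was at 29.7 and 47.0 FPKM. Low fat cell genes were the basis for choosing the pair, so that order is no finding here. Of 22 transcription factors that promote fat cell formation, 3 were higher, Nr1h3 at 1.31, Zfp423 at 1.25 and the glucocorticoid receptor Nr3c1 at 1.19, and 4 were lower, among them Klf5 at -2.79, Egr2 at -2.04 and Zbtb16 at -1.69. With at least 1 FPKM required in both lines, 2 of these factors were lower. Of 19 factors that oppose it, 1 was higher, Ddit3 at 1.04, and 4 were lower, among them the immediate early gene Egr1 at -3.38, Zfp521 at -1.48 and Gata2 at -1.17.

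Surface markers of preadipocytes lay on both sides. Of 21 genes, 9 were higher in FLAG-CACUL1 and 2 lower, with a median log2 ratio of 0.90, and with at least 1 FPKM required in both lines 5 were higher. Thy1, a fibroblast surface protein, was at 144 FPKM in FLAG-CACUL1, 0.663 in sh-Luc, 42.4 in FLAG and 34.3 in sh-CACUL1. Dlk1, the preadipocyte factor that opposes differentiation, was at 39.4, 0.220, 97.2 and 21.2 FPKM in the same order. For both genes sh-Luc stood apart as the low line. Ly6a, the stem cell antigen Sca-1, was at 347 FPKM against 27.6, with 97.9 in FLAG and 24.2 in sh-CACUL1. The lower members were the tetraspanin Cd9 at 39.1 against 262 FPKM and Pdgfra, a receptor that marks preadipocytes, at 40.9 against 84.9. Pdgfrb was at 113 and 60.1 FPKM.

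Extracellular matrix genes were found on both sides. Of 43 proteoglycans, glycoproteins and matricellular proteins, 10 were higher and 8 lower, with a median log2 ratio of 0.15. Mgp, the matrix Gla protein that inhibits calcification (chr6:136872435-136875823), was at 4.50 FPKM in FLAG-CACUL1, 455 in sh-Luc, 5.26 in FLAG and 108 in sh-CACUL1. Its log2 ratio of -6.37 was the lowest of the comparison, and both FLAG lines were low. Ccn1, a matricellular protein and YAP target, was at 3.87 FPKM against 94.5, with 59.6 in FLAG and 18.7 in sh-CACUL1. The small proteoglycan Ogn had a log2 ratio of -3.36. On the higher side were Tgfbi at 4.15, decorin (Dcn) at 2.85 and biglycan (Bgn) at 1.76. Dcn was at 770.0 FPKM in FLAG-CACUL1, 106 in sh-Luc, 99.7 in FLAG and 9.60 in sh-CACUL1.

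Of 35 genes of matrix crosslinking, proteases and inhibitors, 11 were higher and 6 lower. Mmp13, a collagenase, was at 123 FPKM in FLAG-CACUL1, 1.40 in sh-Luc, 7.96 in FLAG and 1.12 in sh-CACUL1. The stromelysin gene Mmp3 was at 487, 22.1, 104 and 1.68 FPKM in the same order. Mmp9, a gelatinase, was at 0.579, 23.1, 1.65 and 0.572. FLAG-CACUL1 was the high line for Mmp13 and Mmp3, and sh-Luc was the only line with more than 2 FPKM of Mmp9. The protease inhibitor Serpine2 had a log2 ratio of 4.58, the plasminogen activator Plat of -1.54 and Timp4 of -1.50. Of 21 collagen chains, 4 were higher and 4 lower, and the number higher was 1 after quantile normalization. Col18a1 had a log2 ratio of 2.74, Col1a2 of 1.28 and Col1a1 of 1.15, whereas Col8a1 had -2.65, Col11a1 -2.18 and Col4a1 -1.18. The fibrillar chain gene Col1a1 was at 2424 FPKM in FLAG-CACUL1, 1095 in sh-Luc, 2412 in FLAG and 156 in sh-CACUL1.

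Metabolic genes outside lipid storage also differed. Of 20 glycolytic enzymes, 7 were higher in FLAG-CACUL1 and 0 lower, with a median log2 ratio of 0.79, and of 22 hypoxia targets outside glycolysis 8 were higher and 0 lower, with a median of 0.87. Pgk1, phosphoglycerate kinase, was at 1017 FPKM in FLAG-CACUL1, 214 in sh-Luc, 1512 in FLAG and 558 in sh-CACUL1. Ldha, lactate dehydrogenase A, was at 972, 297, 1680.0 and 438 FPKM in the same order. FLAG was the highest line for 18 of the 20 glycolytic enzymes and for 20 of the 22 hypoxia targets, against 22.3% of all genes, so FLAG-CACUL1 lay between FLAG and sh-Luc in most. The largest log2 ratios among hypoxia targets were 2.61 for Ankrd37, 2.27 for Higd1a and 2.20 for Ndrg1, and the lowest was -0.83 for Angptl4. Eno2 at -0.93 and Pfkm at -0.59 had the lowest ratios among glycolytic enzymes. With median-of-ratios scaling, 10 glycolytic enzymes and 12 hypoxia targets were higher.

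Of 28 genes of cholesterol synthesis and LDL uptake, FLAG-CACUL1 had 11 lower by 2-fold or more, 2 higher and 15 within 2-fold, with a median log2 ratio of -0.81. Idi1, an isomerase of the mevalonate route, was at 6.36 FPKM in FLAG-CACUL1, 28.8 in sh-Luc, 13.1 in FLAG and 34.3 in sh-CACUL1. Pmvk and Lss, which act before and after squalene, had log2 ratios of -1.69 and -1.51. FLAG-CACUL1 was at least 2-fold below each of the 3 other lines for 6 of the 28 genes, against 0.642% of all genes. Ebp, a sterol isomerase, was among the higher members with a log2 ratio of 1.30. Few oxidative phosphorylation subunits and cytosolic ribosomal proteins reached 2-fold, with 1 of 77 lower and 1 of 81 higher, respectively. Of all genes 4.87% were lower and 5.04% higher. Median log2 ratios were -0.18 and 0.25, against -0.10 over all genes. FLAG-CACUL1 was the lowest of the 4 lines for 41 of the 77 subunits, against 16.7% of all genes. Of the 81 ribosomal protein genes, 64 had a ratio above 0, as had 39.9% of all genes. After median-of-ratios scaling 6 ribosomal protein genes were higher.

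Genes listed as dexamethasone-induced were mostly lower in FLAG-CACUL1 where they reached 2-fold. The list holds targets of the glucocorticoid receptor and also Nr3c1, the gene of the receptor itself. The methods list dexamethasone for the initiation medium only, and the cells were harvested on day 8. Of 21 genes, 10 were lower in FLAG-CACUL1 and 4 higher, and the median log2 ratio was -0.91. Sgk1, a kinase that regulates ion transport, was at 12.8 FPKM in FLAG-CACUL1, 103 in sh-Luc, 6.06 in FLAG and 69.8 in sh-CACUL1. Fam107a was at 0.0450, 16.5, 0.278 and 32.3 FPKM in the same order. The sulfotransferase Sult1a1 was at 0.450, 18.8, 1.89 and 57.2. In 6 of the 21 genes, these included, both FLAG lines were at least 2-fold below both hairpin lines, against 0.382% of all genes. Fam107a and Sult1a1 were named for that arrangement, and the list was written with earlier results of these data known. The count is therefore no independent finding. The 4 higher members were Lcn2, which also belongs to the chemokine and cytokine list, the metallothionein Mt2 at 2.07, the glucocorticoid-activating enzyme Hsd11b1 at 1.62 and Nr3c1 at 1.19. Mt2 was at 180.3 FPKM in FLAG-CACUL1, 42.1 in sh-Luc, 4503 in FLAG and 0.984 in sh-CACUL1.

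The genes were also sorted by the order of all 4 lines. Both FLAG lines were at least 2-fold above both hairpin lines in 242 genes (1.85% of all) and below them in 50 (0.382%). FLAG-CACUL1 stood at least 2-fold above each of the 3 other lines in 167 genes (1.28%) and below them in 84 (0.642%). sh-Luc stood above the 3 others in 222 genes (1.70%) and below them in 82 (0.627%). All genes of these groups in the matching direction are by construction among the 659 higher and 637 lower genes, of which 214 and 287, respectively, fell in none of the groups. With median-of-ratios scaling over the 4 lines, sh-Luc stood above the 3 others in 119 genes and below them in 138. A split of FLAG lines from hairpin lines sets 2 stable populations against 2, and vector, selection drug and differences between populations cannot be told apart.

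FLAG against sh-CACUL1 uses the samples that the main comparison leaves out. Of 10998 genes with at least 1 FPKM in either of those lines, 18.3% were at least 2-fold higher in FLAG and 8.87% lower. Of the 659 genes higher in FLAG-CACUL1 than in sh-Luc, 604 passed the same minimum, and 390 (64.6%) were higher in FLAG and 25 (4.14%) lower. Of the 637 genes lower in FLAG-CACUL1, 575 passed, and 65 (11.3%) were higher in FLAG and 135 (23.5%) lower. In that pair the CACUL1 construct is absent and the hairpin targets Cacul1. Cacul1 was higher in FLAG there, at 9.61 against 5.39 FPKM, a log2 ratio of 0.73, and it was 0.18 in the main comparison. Vector, selection drug and Cacul1 level thus cannot be told apart in that pair either. After median-of-ratios scaling of that pair, the shares were 60.4% for the higher genes and 26.7% for the lower genes, against 15.3% and 11.4% of all genes.

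**Figure D3:**
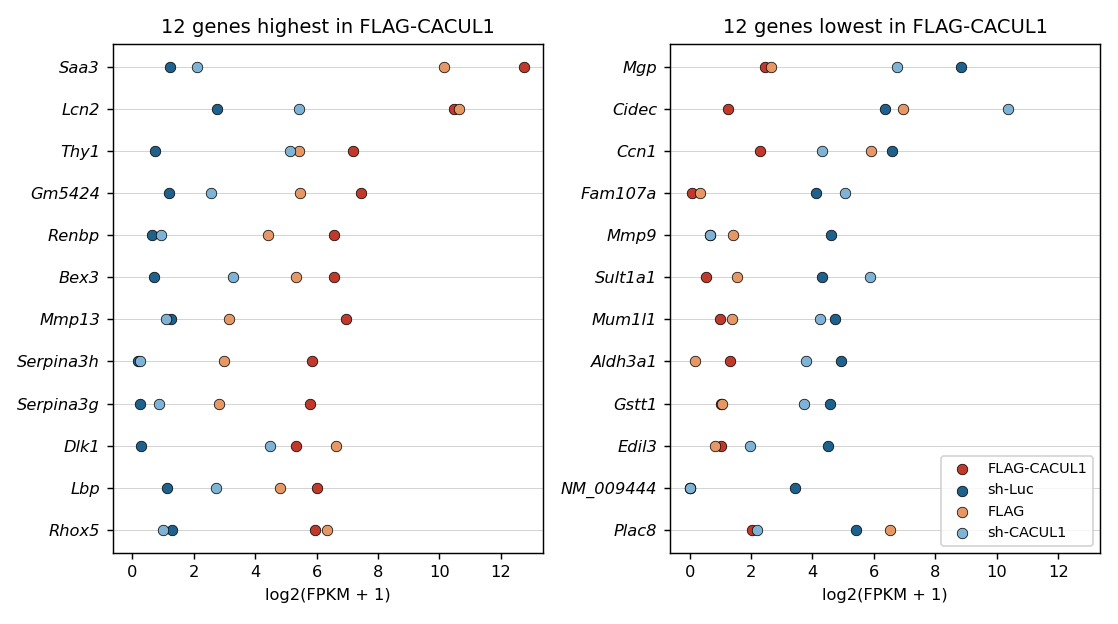
Level as log2(FPKM + 1) in each of the 4 lines (1 sample each) for the 12 genes with the largest and the 12 with the smallest log2 ratio of FLAG-CACUL1 over sh-Luc among genes with at least 5 FPKM in the higher of the 2. Saa3, Lcn2, Renbp and Rhox5 are high in both FLAG lines, Mgp, Fam107a and Sult1a1 are low in both, and Mmp9 is high in sh-Luc only.

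Among the genes whose FLAG lines lay farthest from the hairpin lines, Rhox5, a homeobox gene on chromosome X, was at 60.7 FPKM in FLAG-CACUL1, 79.4 in FLAG, 1.45 in sh-Luc and 1.01 in sh-CACUL1. Ass1, the argininosuccinate synthase of arginine production, was at 16.9 and 15.0 FPKM in the FLAG lines and listed at 8.76e-05 and 0.000136 in the hairpin lines sh-Luc and sh-CACUL1, far below 1 fragment. Gm5424, an Ass1 pseudogene, was at 173 FPKM in FLAG-CACUL1, 43.4 in FLAG, 1.30 in sh-Luc and 4.88 in sh-CACUL1. Reads may be divided between it and Ass1. In the other direction Gstt1, a glutathione transferase, was at 1.02 and 1.08 FPKM in the FLAG lines and 22.5 and 12.1 in sh-Luc and sh-CACUL1. Mum1l1 was at 1.00 and 1.58 against 25.7 and 18.1 FPKM. Apart from Gm5424, these genes were named for that arrangement, as were Saa3, Lcn2, Psmb8, Mgp, Fam107a and Sult1a1 above, and it is therefore no finding for them.

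Other genes lay at the ends of the comparison. Renbp, a renin binding protein with N-acetylglucosamine epimerase activity, was at 94.2 FPKM in FLAG-CACUL1, 0.562 in sh-Luc, 20.2 in FLAG and 0.896 in sh-CACUL1. Bex3 was at 94.5, 0.632, 39.4 and 8.78 FPKM in the same order. For both, FLAG-CACUL1 was highest and FLAG second, with both hairpin lines below them. Aldh3a1, an aldehyde dehydrogenase, was at 1.46 FPKM in FLAG-CACUL1, 29.6 in sh-Luc, 0.140 in FLAG and 12.9 in sh-CACUL1, so that both FLAG lines were low. Edil3, an integrin ligand of the matrix, was at 1.04, 21.7, 0.765 and 2.90. Plac8 was at 3.13 FPKM against 42.2, with 92.0 in FLAG and 3.62 in sh-CACUL1, so that here 1 line of each vector was high. A transcript with no gene symbol in the tables used, NM_009444, was at 9.79 FPKM in sh-Luc and far below 1 fragment in the other lines.

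Position along the genome was examined for 10840 genes with at least 1 FPKM in either line, with RefSeq positions on GRCm38.p6. The median log2 ratio over these genes was -0.15, and by chromosome it ran from -0.42 to 0.42. It was 0.42 on chromosome 18 (283 genes) and 0.41 on chromosome X (351 genes), where 12.7% and 15.4% of genes were higher and 1.77% and 3.13% lower. The lowest medians were -0.42 on chromosome 3 (537 genes), -0.42 on chromosome 8 (604 genes), -0.38 on chromosome 13 (387 genes) and -0.36 on chromosome 11 (900 genes). On chromosome 3, 2.61% of genes were higher and 11.2% lower. In FLAG against sh-CACUL1 the median over the same genes was 0.14, and it was 0.38 on chromosome 18, 0.23 on X, 0.20 on chromosome 3 and 0.12 on chromosome 8. A minimum of 5 FPKM in both lines moved none of the 20 chromosome medians by 0.1 or more relative to the median of all. Scaling between the lines also moved none, but it shifts the ratios of nearly all genes alike and could hardly have done so. DNA copy number was not measured, and whether the chromosome content of the lines differed was not tested.

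**Figure D4:**
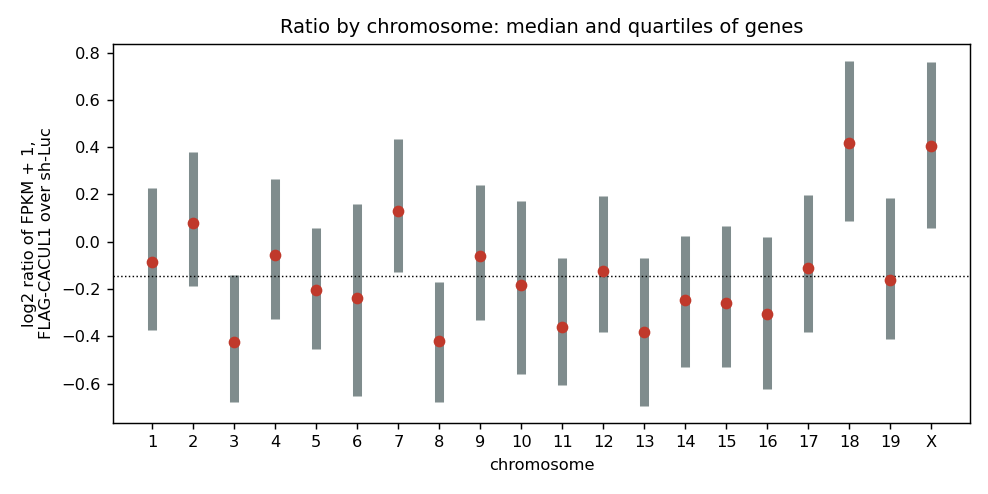
Median (red dot) and quartiles (grey bar) of the log2 ratio of FPKM + 1, FLAG-CACUL1 over sh-Luc, for genes with at least 1 FPKM in either line, by chromosome; the dotted line is the median of all these genes (-0.15). Chromosomes 18 and X have medians of 0.42 and 0.41, and chromosomes 3 and 8 of -0.42.

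Windows of 9 neighbouring genes were ranked by their median log2 ratio, a choice made after the values were seen. The highest was the Serpina3 cluster on chr12:103376894-104414334, with a median of 2.72 and 6 of 9 genes higher. The third was an MHC class I stretch on chr17:35979955-36168602, with a median of 1.83 and 7 higher, and this and the windows of predicted genes on chromosomes 14 and X hold families whose members share sequence. The second, on chr10:117215141-117845974 with a median of 2.24, holds mostly unrelated genes around Mdm2, the ubiquitin ligase that limits p53. Mdm2 (chr10:117688875-117710758) was at 308 FPKM in FLAG-CACUL1, 1430.0 in sh-Luc, 414 in FLAG and 906 in sh-CACUL1. Its neighbour Slc35e3, a nucleotide sugar transporter family gene, was at 116, 599, 127 and 1186 FPKM in the same order. Both were lower in both FLAG lines than in both hairpin lines.

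On either side of them the order was different. Cct2, a chaperonin subunit, was at 789.9 FPKM in FLAG-CACUL1, 151 in sh-Luc, 699 in FLAG and 779 in sh-CACUL1. Rap1b, a small GTPase, was at 409, 85.6, 275 and 301 FPKM, and Yeats4, a chromatin reader, at 139, 24.4, 199.6 and 87.3. For these genes sh-Luc was the low line and the 3 other lines were all above it. Nup107 of the nuclear pore, Frs2 and Mdm1 had log2 ratios of 2.62, 1.76 and 1.53 and the same low line. Lyz2, also a macrophage marker, and Lyz1 lie in this stretch, and as near-identical lysozyme genes they may share reads. Outside it, Cnot2 at 12.3 against 23.2 FPKM and Cand1 at 23.2 against 21.3 FPKM were within 2-fold. The lowest windows were on chr10:108332189-111508649 from Pawr to Phlda1, with a median of -1.16, and on chr6:125460266-128143578 from Cd9 to Tspan9, with a median of -1.08, and 5 of 9 genes were lower in each.

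**Figure D5:**
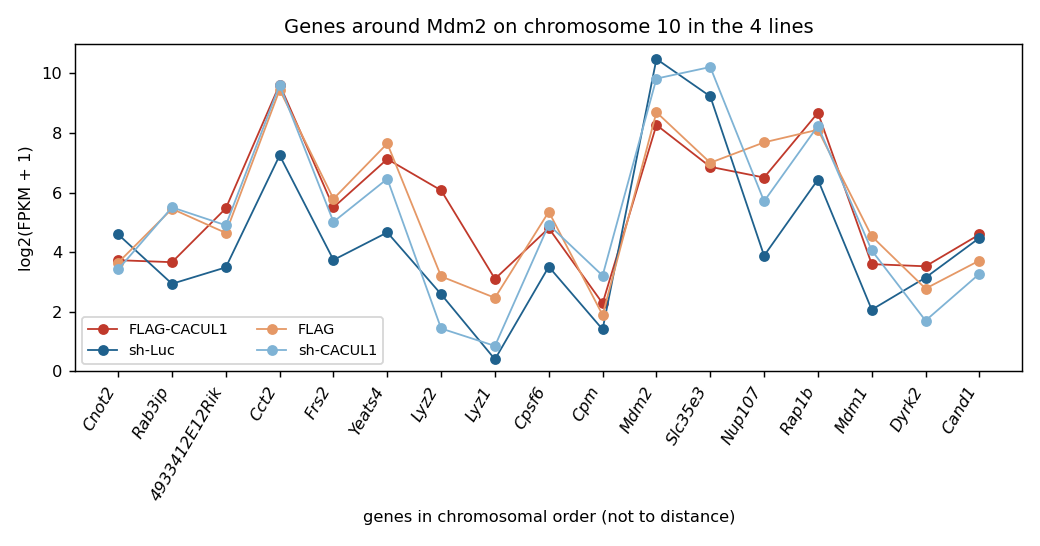
Level as log2(FPKM + 1) of 17 neighbouring genes on chromosome 10, in chromosomal order and not to distance, in the 4 lines (1 sample each). From 4933412E12Rik to Mdm1, sh-Luc (dark blue) is below FLAG-CACUL1 (red) except at Mdm2 and Slc35e3, where both hairpin lines are above both FLAG lines.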

How the data were processed

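RNA-seq values of 4 stable 3T3-L1 lines, 1 sample each, were analysed. The authors deposited FPKM values for 13110 rows of RefSeq transcripts per sample, made from mRNA-seq libraries prepared and sequenced by a company, and the submitters' processing notes name mm10. The aligner, the program that computed FPKM and any filter are not given in the sources used here. Rows were joined to symbols through GENCODE M21 (12906 rows) and the RefSeq gene table (149 rows), 47 rows had no symbol, and rows of 1 symbol were summed. Ratios used a pseudocount of 1, which understates changes of low genes, and a 2-fold cut-off. The 47 gene lists, their members and the named genes were chosen with earlier results of these data known. Genes named were the 12 at each end with at least 5 FPKM, 3 at each end of a list with at least 1 FPKM, 12 genes of the study's model and the 5 in each direction whose FLAG lines lay farthest from the hairpin lines. Others were named as examples after their values were seen, and 1 gene that the rule names is not reported here. The code was tested on simulated data. Depth was estimated from steps in low values of transcripts of at least 3000 bases. Settings were varied in 8 ways for the gene counts. Python 3.11.15, numpy 2.4.6, pandas 2.3.3 and matplotlib 3.10.9 were used.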

Additional observations from a re-analysis of the deposited data

How the results depend on the processing

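With 1 sample per line, neither replicate error nor a leave-one-out value could be given. No paired analysis was possible because each group has 1 sample. Against 1296 genes at least 2-fold apart (659 higher, 637 lower), the counts were 2839 (1312 and 1527) without a pseudocount, 2317 (1079 and 1238) with a pseudocount of 0.1 and 477 (290 and 187) at 3-fold. The other 5 settings kept these counts within 1.5 times. Both FLAG lines lay above both hairpin lines in 377 genes with a pseudocount of 0.1 and 108 at 3-fold, and below in 157 and 22. FLAG-CACUL1 lay above the 3 others in 294 and 54 genes and below in 227 and 19, and sh-Luc above in 385 and 54 and below in 207 and 34. Median-of-ratios scaling gave 119 and 138 for sh-Luc above and below. No named gene called at 2-fold reversed its direction under the settings tried. Changing the pseudocount, the minimum level or the cut-off cannot reverse a direction, and scaling shifts a ratio by only about 0.16. That outcome therefore says little about how firm the directions are. Scaling of FLAG against sh-CACUL1 and the chromosome settings were chosen after seeing the data, and the depth limits low genes, where 1 fragment on 1 kb is worth up to 0.0701 FPKM.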

Other observations

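Several further gene groups were read in the same 2 lines. Of 23 genes of p53 and its targets, 6 were higher in FLAG-CACUL1 and 3 lower, with a median log2 ratio of 0.76. The death receptor Fas was at 45.3 FPKM in FLAG-CACUL1, 8.63 in sh-Luc, 26.9 in FLAG and 5.65 in sh-CACUL1, and the BH3-only gene Bbc3 was at 15.2, 4.18, 11.2 and 9.33. The lower members were Mdm2 at -2.21, Sesn1 at -1.78 and Gadd45b at -1.06. FLAG-CACUL1 had the highest level of the 4 lines in 15 of the 23 genes, against 21.8% of all genes. Of 22 lysosomal cathepsins and hydrolases, 6 were higher and 0 lower, led by Ctsz with a log2 ratio of 2.02, Ctsk with 1.50 and Lgmn with 1.17, and after quantile normalization 3 were higher. Of 17 genes of cholesterol efflux and apolipoproteins, 5 were higher and 1 lower, with Apoc1 at 1.93, Abca1 at 1.54 and Apod, the lower member, at -1.85.

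NRF2 antioxidant genes went both ways, with 4 of 38 higher and 5 lower, and with at least 1 FPKM required in both lines 2 were higher. The carbonyl reductase gene Cbr1 was at 24.5 FPKM in FLAG-CACUL1, 0.262 in sh-Luc, 118 in FLAG and 46.2 in sh-CACUL1, whereas Nqo1, the quinone reductase, was at 7.79, 56.3, 10.1 and 13.0. sh-Luc was the line that stood apart for both genes, as the lowest for Cbr1 and the highest for Nqo1. Of 18 IGF pathway genes, 3 were higher and 2 lower, and the binding proteins Igfbp4 and Igfbp5 had log2 ratios of 4.08 and 3.90 and Igfbp6 of -1.60. Among 13 imprinted genes, Dlk1 was the 1 higher member, and Peg10 at -3.37 and Slc38a4 at -2.21 were the 2 lower. None of 26 endoplasmic reticulum chaperone genes and none of 14 Notch pathway genes reached 2-fold. Of all genes 5.04% were higher and 4.87% lower, so counts of 0 in lists this small say little. Without a pseudocount 1 Notch pathway gene was higher and 3 were lower.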
